A study of Mus musculus with 4 samples.

Results

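The natriuretic peptide system was examined in hearts of newborn mice that had received either a vector carrying Tbx6 or phosphate-buffered saline (PBS). It was taken as 8 genes of the 19505 genes measured, chosen by gene symbol: the hormone genes Nppa, Nppb and Nppc, the receptor genes Npr1, Npr2 and Npr3, and the protease genes Corin and Furin. Each had 1 probe set on the mouse Clariom S array, and the deposited values are taken as log2 expression. The animals were outbred ICR (Jcl:ICR) mice, injected at postnatal day 1, and the hearts were collected 7 or 30 days later. There were 4 groups with 1 array each: PBS at day 7, Tbx6 at day 7, PBS at day 30 and Tbx6 at day 30. The vector is labelled only as a viral preparation, and since controls received PBS with no vector, an injection difference reflects vector and gene together. One label field has the injection made subcutaneously in the back, and others speak of the heart. The sources used here give neither the number of hearts in each RNA sample nor their sex or chamber.

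Natriuretic peptides are hormones that heart muscle secretes when it is stretched. Nppa encodes the atrial peptide ANP, Nppb the B-type peptide BNP, and Nppc the C-type peptide CNP, which is made mainly outside heart muscle. Npr1 is the receptor of ANP and BNP and Npr2 that of CNP. Both are guanylyl cyclases that make cyclic GMP, which activates the kinase encoded by Prkg1. Npr3 is the clearance receptor, which takes the peptides up and has no cyclase domain. Corin is the protease on the heart muscle cell that cuts the ANP precursor, and Furin is a general proprotein convertase that can cut the BNP precursor. Nppa and Nppb are expressed widely in the embryonic heart, and ventricular Nppa normally declines around and after birth while the atria keep it.

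Nppa and Nppb are neighbours on chromosome 4, with start sites 14822 bases apart. Their promoters are shown because Nppb was the member with the lowest reading after Tbx6 relative to PBS at day 30, Nppa is its neighbour, and the study's factor belongs to the T-box family. Each is the 250 bases before the RefSeq start site (GRCm38.p6, plus strand), chr4:148000472-148000721 for Nppa and chr4:147985650-147985899 for Nppb, and capitals mark the motif matches given next.
Nppa: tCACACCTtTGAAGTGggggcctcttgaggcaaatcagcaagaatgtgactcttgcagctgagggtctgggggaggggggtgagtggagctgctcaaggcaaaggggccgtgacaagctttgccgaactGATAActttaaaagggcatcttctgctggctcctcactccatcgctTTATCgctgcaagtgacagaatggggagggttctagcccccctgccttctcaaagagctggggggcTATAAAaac
Nppb: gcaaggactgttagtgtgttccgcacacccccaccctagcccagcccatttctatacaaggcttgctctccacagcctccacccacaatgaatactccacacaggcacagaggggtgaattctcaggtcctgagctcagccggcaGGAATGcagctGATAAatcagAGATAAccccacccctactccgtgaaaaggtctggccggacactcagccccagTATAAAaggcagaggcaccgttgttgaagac

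Exact letters were searched on both strands. The T-box half-site AGGTGTG matched the Nppa promoter at -249 to -243, counted back from the base before the start as -1, and 5.10% of all 32851 promoters of the same table hold it. The NKX site TGAAGTG followed in Nppa at -241 to -235 and stands in 3.31% of all promoters. In Nppb the M-CAT site CATTCC matched on the opposite strand at -105 to -100 (12.6% of all promoters), and the GATA site AGATAA at -84 to -79 (9.99%). The shorter core GATAA and the TATA box TATAAA were added after the promoters had been read. GATAA, which overlaps AGATAA, matched at 2 places in each of the pair (22.6% of all promoters). TATAAA, searched on the gene's strand, was in the promoters of all 3 peptide genes (7.59% of all promoters) and, of the 6 promoters of the receptor and protease genes, in 1 of the 2 listed for Furin. It lay at -31 to -26 in Nppb and -29 to -24 in Nppc, but nearer the start in Nppa, at -9 to -4. The CArG box, present in 1.47% of all promoters, matched none of the 9. A match is only a match of letters, and no binding was measured here.

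The readings of the 6 heart muscle markers (Myh6, Tnnt2, Tnni3, Ryr2, Actc1 and Pln) were above background on every array and the 3 liver markers were at background on all. A reading is called at background when it was at or below the highest of the 23 background probe sets of its array, which read 5.77 to 6.05 on the log2 scale. The PBS array of day 7 stood apart in lung markers: Scgb1a1, Scgb3a1 and Cyp2f2 were above background on it. Its summed level of the 6 lung markers was 13.2 on the log2 scale, against 6.77 to 7.48 on the other arrays. That sum rests mainly on Scgb1a1 (12.89). The surfactant genes Sftpc, Sftpa1 and Sftpb were at background on all 4 arrays, and Cyp2f2 was also above background on the Tbx6 array of day 30 (6.31). The Tbx6 probe set was at background on all 4 arrays, between 3.57 and 4.14, so it does not check the labels. Readings of different probe sets cannot be ranked against each other, so each gene is compared only with itself.

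Nppa read 19.68 (PBS) and 19.43 (Tbx6) at day 7, and 19.92 (PBS) and 19.93 (Tbx6) at day 30, on the log2 scale. Both readings of day 30 lay above both of day 7, and the Tbx6 reading of day 30 equalled the highest value in the table. The 21 genes with a mean of at least 19 had a median range over the 4 arrays of only 0.09, against 0.81 over all tested genes, and 2 of the 21 had a range at least as large as that of Nppa. Differences of Nppa may therefore be understated and its values at day 30 may be lower bounds, which was not tested. Nppb read 10.79 (PBS) and 10.28 (Tbx6) at day 7, and 10.29 (PBS) and 8.62 (Tbx6) at day 30. Its reading was lower after Tbx6 on both days, and the Tbx6 array of day 30 stood below the other 3, which lay between 10.28 and 10.79. Nppc read 2.63 and 2.90 at day 7 and 2.63 and 2.98 at day 30, after PBS and Tbx6 in turn. All 4 values were at background, so CNP transcript was not detectable here.

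Among the receptors, Npr1 was at background on 3 arrays, at 5.72 after PBS at day 7 and at 5.35 (PBS) and 4.92 (Tbx6) at day 30, and just above it on the Tbx6 array of day 7 (5.80). No difference of Npr1 can therefore be read from its numbers. Npr2 read 11.03 (PBS) and 11.09 (Tbx6) at day 7, and 11.02 and 10.89 at day 30. Its range was the smallest among the 6 members with every reading above background. Npr3 read 9.51 (PBS) and 9.68 (Tbx6) at day 7, and 10.25 (PBS) and 9.52 (Tbx6) at day 30. The PBS array of day 30 was the high one, and the other 3 lay close together.

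Of the proteases, Corin read 13.49 (PBS) and 13.83 (Tbx6) at day 7, and 14.95 and 14.90 at day 30. The days did not overlap, and the injections differed by much less than the days. Furin read 8.30 (PBS) and 7.78 (Tbx6) at day 7, and 8.09 and 8.04 at day 30. Its lowest reading was on the Tbx6 array of day 7 and its highest on the PBS array of the same day.

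**Figure D1:**
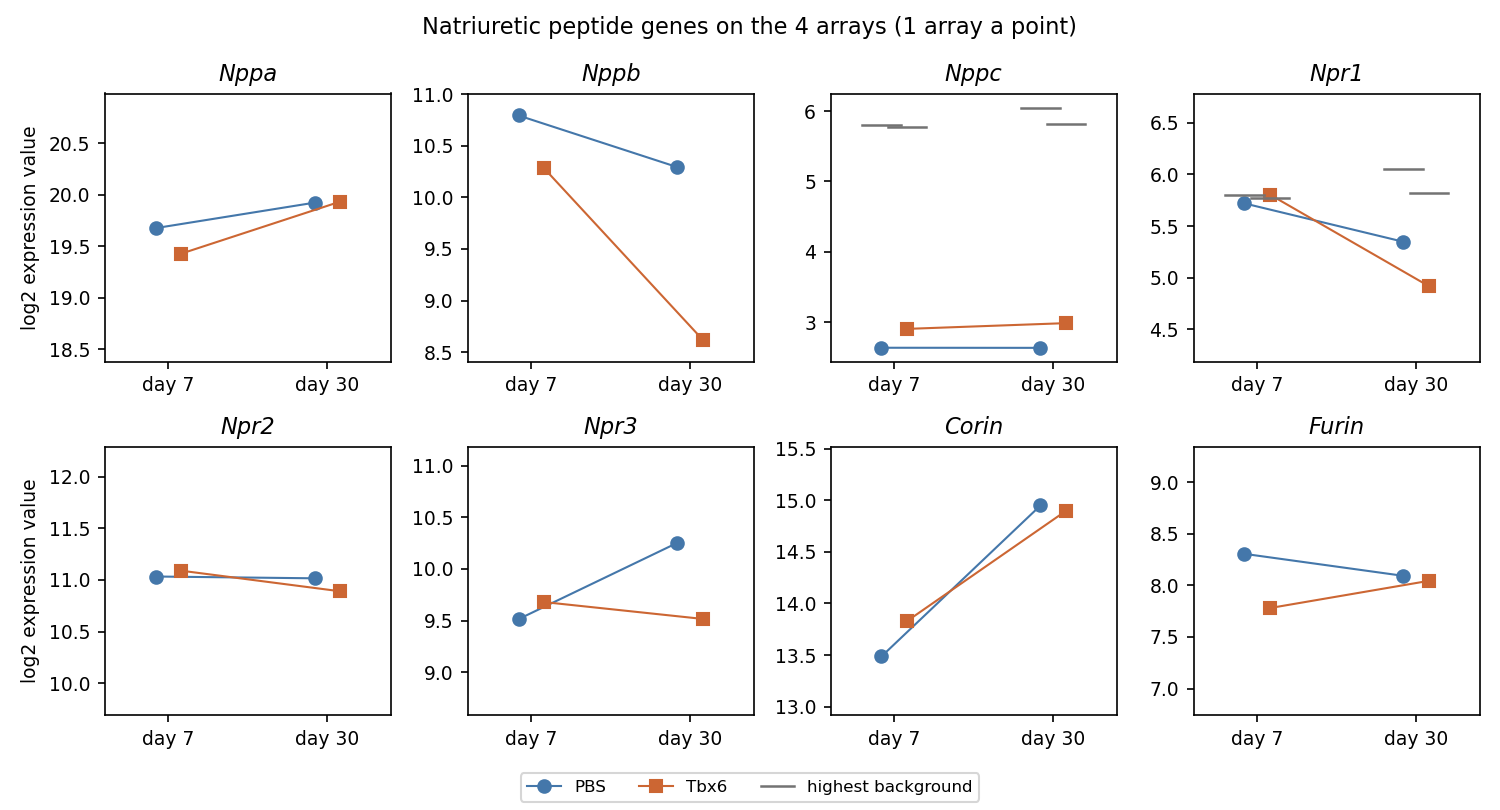
Log2 expression value (vertical axis, with its own scale in each panel) of the 8 genes at day 7 and day 30 after PBS (circles) or Tbx6 (squares), 1 array a point, with lines joining arrays of the same injection; grey bars, in view for Nppc and Npr1, are each array's highest background probe set. Corin was higher on both arrays of day 30 (14.95 and 14.90), while Nppb was low on the Tbx6 array of day 30 (8.62).

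The first comparison asked how the genes differed between day 7 and day 30. Corin rose, Nppb passed the test as lower mainly through 1 array, and the other 5 genes tested did not pass. With 1 array in each group, the only replication of a day lies across the injections, so an additive limma model with Benjamini-Hochberg adjustment, holding day and injection as terms, was fitted to the 9753 genes whose mean reached the median over all genes. It has 1 residual degree of freedom, so a standard error (SE) rests largely on the variance of other genes. Nppc did not pass the filter. Of the 7 genes tested, 2 passed an adjusted p of 0.05, where 26.3% of all tested genes did, so the count is close to the background.

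Corin rose by 1.27 on the log2 scale (SE 0.25, adjusted p of 0.0080 by limma), or 2.40-fold. The difference was 1.46 between the PBS arrays and 1.07 between the Tbx6 arrays, and 14.7% of all tested genes were at least 1.5-fold higher at day 30 under both injections. In heart RNA, more transcript per cell and more cells of the type that makes it cannot be told apart. The summed level of the 6 heart muscle markers was 21.9 on the log2 scale on all 4 arrays. That sum rests on Myh6, Tnnt2, Actc1 and Pln, which sit near the top of the scale, so it cannot show whether heart muscle content changed. Tnni3 and Ryr2, which read lower, differed between days by 0.18 and 0.21 in the model (SE 0.25 for each) and did not pass.

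Nppb fell by 1.08 in the model (SE 0.31, adjusted p of 0.035 by limma), but the difference was -0.50 between the PBS arrays and -1.66 between the Tbx6 arrays. Without the Tbx6 array of day 30 it was -0.25 (adjusted p of 0.67 by limma), and without the PBS or the Tbx6 array of day 7 it was -0.83 and -1.34 and did not pass either (adjusted p of 0.33 and 0.13 by limma). It did not pass with day alone in the model or with no filter on low values (adjusted p of 0.16 and 0.064 by limma). The lower Nppb level at day 30 therefore rests on the Tbx6 array. For Nppa the model gave 0.38 (SE 0.25, adjusted p of 0.29 by limma), with 0.25 between the PBS arrays and 0.50 between the Tbx6 arrays, on readings near the top of the scale. With a variance that depends on the level it passed (adjusted p of 0.027 by limma-trend).

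The clearance receptor gene Npr3 differed by 0.74 between the PBS arrays and by -0.16 between the Tbx6 arrays, and the model gave 0.29 (SE 0.29, adjusted p of 0.49 by limma). The sign thus differed between the injection groups, but the difference between the Tbx6 arrays was smaller than the SE. Npr2 differed by -0.02 after PBS and -0.20 after Tbx6, with -0.11 in the model (SE 0.24, adjusted p of 0.78 by limma). Furin differed by -0.21 after PBS and by 0.26 after Tbx6, with 0.03 in the model (SE 0.26, adjusted p of 0.95 by limma). Npr1 gave -0.63 on values that lay at or next to background (adjusted p of 0.11 by limma), and 0.13 when each reading at background was raised to the highest background probe set. These errors leave room for differences of some size in either direction for the receptors and Furin.

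**Figure D2:**
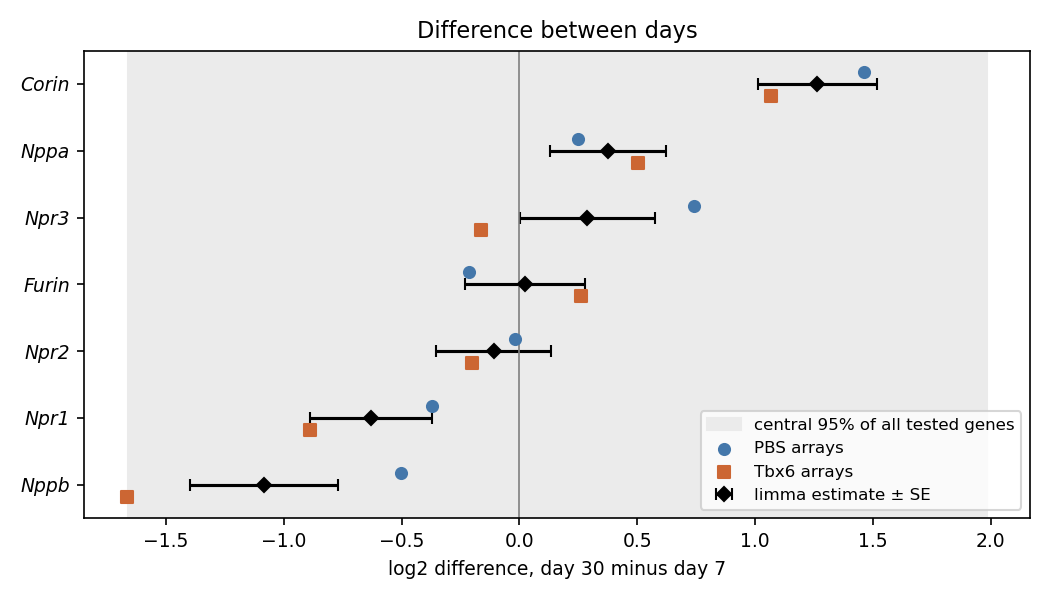
Log2 difference between day 30 and day 7 (horizontal axis) for the 7 genes tested, between the PBS arrays (circles), between the Tbx6 arrays (squares) and in the limma model (diamonds, bars of 1 SE); the grey band holds the central 95% of all tested genes, and Npr1 lay at or next to background. Corin was higher at day 30 under both injections (1.46 and 1.07), and the Nppb arrays differed by -0.50 and -1.66.

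The second comparison asked how the genes differed after Tbx6. At day 7 none of the 8 genes differed from PBS by 1.5-fold, a size that 15.6% of all tested genes reached. At day 30 Nppb and Npr3 did, both lower after Tbx6, where 6.06% of all tested genes were lower by that much and 13.2% differed in either direction. Each of these is a difference of 2 single arrays with no replicate check.

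At day 7 the differences on the log2 scale, Tbx6 minus PBS, were -0.52 for Furin, -0.51 for Nppb, 0.34 for Corin, -0.25 for Nppa, 0.17 for Npr3 and 0.06 for Npr2. Furin and Nppb were the nearest to 1.5-fold (1.44-fold and 1.42-fold lower), and 1030 and 1081 of the 9753 tested genes were as low or lower. On this pair, lung markers were above background on the PBS array alone. Markers of fat and blood were also lower after Tbx6 on this pair. Of the 4 adipocyte markers tested, 3 were at least 1.5-fold lower (8.41% of all tested genes), Ucp1, the uncoupling protein of brown fat, at 11.92 (PBS) and 7.60 (Tbx6), Adipoq by -1.91 and Cidec by -0.96 on the log2 scale. Alas2, the haem synthesis enzyme of red cells, differed by -1.79. The part of these tissues and of that array in the differences of Furin and Nppb was not tested.

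At day 30 Nppb differed by -1.67, or 3.19-fold, and 5 of the 9753 tested genes, Nppb included, were as low or lower. Npr3 differed by -0.74, or 1.67-fold, with 304 genes as low or lower. Npr2 differed by -0.13, Corin by -0.05, Furin by -0.05 and Nppa by 0.01, the last with both readings at or next to the highest value of the table. So Nppb was the gene of the group that stood out on this pair of arrays, while a higher Nppa level after Tbx6 could not have been read at the top of the scale. For Nppb the day 7 and day 30 differences had the same sign, and for Npr3 opposite signs. Whether the differences changed between days could not be tested with 1 array a group.

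The additive model, which takes each injection as replicated across the days, called 0 of the 7 genes for injection, and 0 of the 9753 (0.0%) in all, while 421 genes (4.32%) had an unadjusted p under 0.05. Nppb was the 1 member among them (log2 difference -1.09, SE 0.31, unadjusted p of 0.0076, adjusted p of 1 by limma). The other 6 members had model differences from -0.29 to 0.14.

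**Figure D3:**
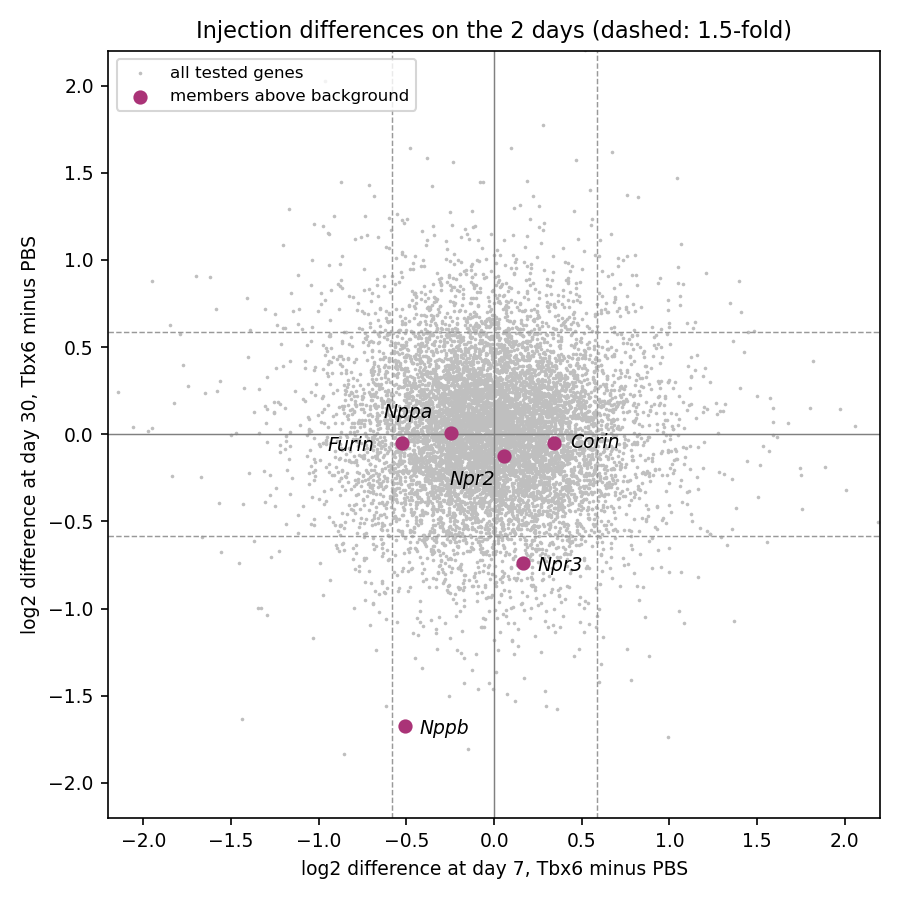
Log2 difference of Tbx6 minus PBS at day 7 (horizontal axis) and at day 30 (vertical axis) for all tested genes (grey) and for the 6 members above background on all arrays (purple), with dashed lines at 1.5-fold; 19 genes lie outside the axes. Nppb (-0.51 and -1.67) lies at the lower edge of the cloud, and Npr3 (0.17 and -0.74) is past 1.5-fold at day 30 alone.

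Markers of other tissue parts differed on the same pair of arrays. Of the 12 atrial markers, all above background on every array, 5 were at least 1.5-fold higher and 1 lower after Tbx6 at day 30 (7.13% and 6.06% of all tested genes). The channel gene Kcnj3 read 13.05 against 12.05. The lower one, Bmp10, differed by -0.59 and is named after its values were seen. The summed level of the 12 was 18.9 and 19.1 at day 7 and 19.3 (PBS) and 19.6 (Tbx6) at day 30. That sum rests largely on Pam at day 7, with Myl4 and Myl7 next, and on Clu and Pam at day 30. Clu read 15.84 and 15.47 at day 7 and 17.73 and 18.35 at day 30. The 3 adipocyte markers that were lower after Tbx6 at day 7 were higher by that much after Tbx6 at day 30, the opposite direction. The fat hormone gene Adipoq read 9.83 there against 7.49 after PBS. Ucp1 read 8.34 against 5.69, the latter at background, and its difference was the highest of all tested genes. Over all 6 adipocyte markers the summed level was 16.7 after Tbx6 and 16.5 after PBS, with 2 and 4 of the 6 at background, Plin1 and Lep at background on every array. That sum rests on Fabp4, which read 16.70 and 16.46. Of the endothelial and endocardial markers, 0 of 8 differed by 1.5-fold at day 30. The median of that list was 0.13 at day 30 and -0.31 at day 7. Nfatc1 of the endocardium is outside the naming rule and is given because Npr3 is known to be expressed there. It differed by -0.48 at day 30, the direction of Npr3 but not of the list median. At day 7 it differed by -0.62, where Npr3 differed by 0.17. The part of these markers in the Nppb and Npr3 differences was not tested. Between the days 3 of the 12 atrial markers rose and 1 fell, where 14.2% and 12.1% of all tested genes did. Clu, a secreted chaperone, rose by 2.39 (SE 0.30, adjusted p of 0.00084 by limma), and Kcnj3 rose by 1.56 (SE 0.32, adjusted p of 0.0090 by limma) but not without the Tbx6 array of day 30 (adjusted p of 0.061 by limma). Sln, a calcium pump regulator, and Myl7, the atrial light chain, differed by 0.87 and -0.78, and both lost the call with no filter. Sln also lost it with quantile normalisation (0.62, adjusted p of 0.094 by limma). Myl7 also lost it with all arrays and day alone in the model (adjusted p of 0.095 by limma). Fits with each array left out also held day alone, and they called fewer of all tested genes than the main model. In them Sln differed by 0.67 to 1.07 and Myl7 by -1.08 to -0.47, and neither kept the call in all of these fits.

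Genes that respond to stretch or load were read beside Nppb. Of the 9 tested stretch and hypertrophy genes, 1 was at least 1.5-fold lower after Tbx6 at day 30, near the 6.06% of all tested genes. It was Acta1, the skeletal alpha-actin gene that is re-expressed in loaded hearts, which read 17.28 (PBS) and 15.92 (Tbx6) at day 30, and 13.18 and 13.19 at day 7. Its difference at day 30 was -1.36. The median of the list at day 30 was -0.08, against 0.01 over all tested genes. At day 7, 2 of the 9 were at least 1.5-fold lower after Tbx6 and 1 was higher. Over all 9753 tested genes, 820 were lower and 705 higher by that much. Ankrd1, a stretch-response gene outside the naming rule that is given because it is commonly read beside Nppb, read 17.46 and 17.56 at day 30.

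Between the days the same list moved both ways, with 3 of 9 tested genes risen and 3 fallen, against 14.2% and 12.1% of all tested genes, and a median of -0.07, against -0.02 over all tested genes. Acta1 rose by 3.42 (SE 0.34, adjusted p of 0.00031 by limma) and Xirp2, which encodes an actin-binding protein of the intercalated disc, rose by 1.39. Serpina3n, a secreted protease inhibitor, rose by 1.23. With each array left out it differed by 0.72 to 1.74 and did not keep the call in all of these fits. Rcan1, a calcineurin target and regulator, fell by 1.91. Myh7 and Xirp1 completed the fallen genes and are named here after their values were seen. With each array left out, Myh7 differed by -1.40 to -0.65 and Xirp1 by -1.24 to -0.94, and neither kept the call in all of these fits. Myh7 also lost it with no filter.

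Cyclic GMP signalling genes act after the receptors, apart from subunits of the soluble cyclase such as Gucy1b1, which makes cyclic GMP without them. Of the 12 tested, 5 fell and 0 rose between the days, where 12.1% of all tested genes fell, and the median difference was -0.30. Vasp, an actin regulator and substrate of the kinase, fell by 1.52 (SE 0.26, adjusted p of 0.0040 by limma), and Pde5a, the phosphodiesterase that breaks down cyclic GMP, fell by 1.43 (SE 0.25, adjusted p of 0.0046 by limma). Prkg1, the cyclic GMP-dependent kinase, read 7.41 and 7.49 at day 7 and 6.40 and 6.49 at day 30, and fell by 1.005 (SE 0.24, adjusted p of 0.017 by limma). Gucy1b1, a subunit of the soluble, nitric oxide-driven cyclase, fell by 0.96 (SE 0.24, adjusted p of 0.021 by limma). The fifth, Pde1a, is named after its values were seen. With each array left out, Vasp differed by -1.66 to -1.38 and Pde5a by -1.55 to -1.30, and both kept the call. Prkg1 differed by -1.05 to -0.96, Gucy1b1 by -1.01 to -0.91 and Pde1a by -0.94 to -0.63. These last genes did not keep the call in all of these fits, which use fewer arrays and called fewer of all tested genes.

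These genes are also expressed in vessels. Of the 8 endothelial and endocardial markers 2 fell between the days, Cdh5 by 0.91 and Kdr by 1.03, and 0 rose, against 12.1% and 14.2% of all tested genes. Both lost the call without either array of day 30, and Cdh5 also without the PBS array of day 7 (adjusted p of 0.072 by limma) and with no filter (adjusted p of 0.053 by limma). The median of the list was -0.58, and Vwf, Plvap and Nfatc1 were higher at day 30 in the model (0.73, 0.48 and 0.34) without passing. The summed level of the list was 16.7 and 16.6 at day 7 and 15.7 and 15.8 at day 30. That sum rests mainly on Cdh5 and Kdr, so it largely repeats these genes. Of the 6 smooth muscle and pericyte markers 0 passed in either direction, with summed levels of 17.9 and 17.6 at day 7 and 17.6 and 16.9 at day 30. That sum rests mainly on Acta2, which differed by -0.87 after Tbx6 at day 30. The other markers of the list were higher there, by 0.07 (Cspg4) to 0.38 (Tagln). Fibroblast markers were lower by more. Of the 3 tested 2 fell and 0 rose, with a median of -1.72. Col1a1, a collagen chain, fell by 3.57 (SE 0.27, adjusted p of 9.7e-05 by limma) and Tcf21, a transcription factor of cardiac fibroblasts, fell by 1.72 (SE 0.24, adjusted p of 0.0015 by limma), and both kept the call with each array left out. Dcn, the third, differed by -0.08. Of the 2 blood markers Alas2 fell by 2.09 (adjusted p of 0.014 by limma). With each array left out it differed by -2.99 to -1.20 and did not keep the call in all of these fits. The other, Ptprc, went the opposite way, by 0.71 in the model (SE 0.28, adjusted p of 0.094 by limma), and did not pass. The part of vessel cells, fibroblasts and blood in the lower cyclic GMP genes was not tested.

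**Figure D4:**
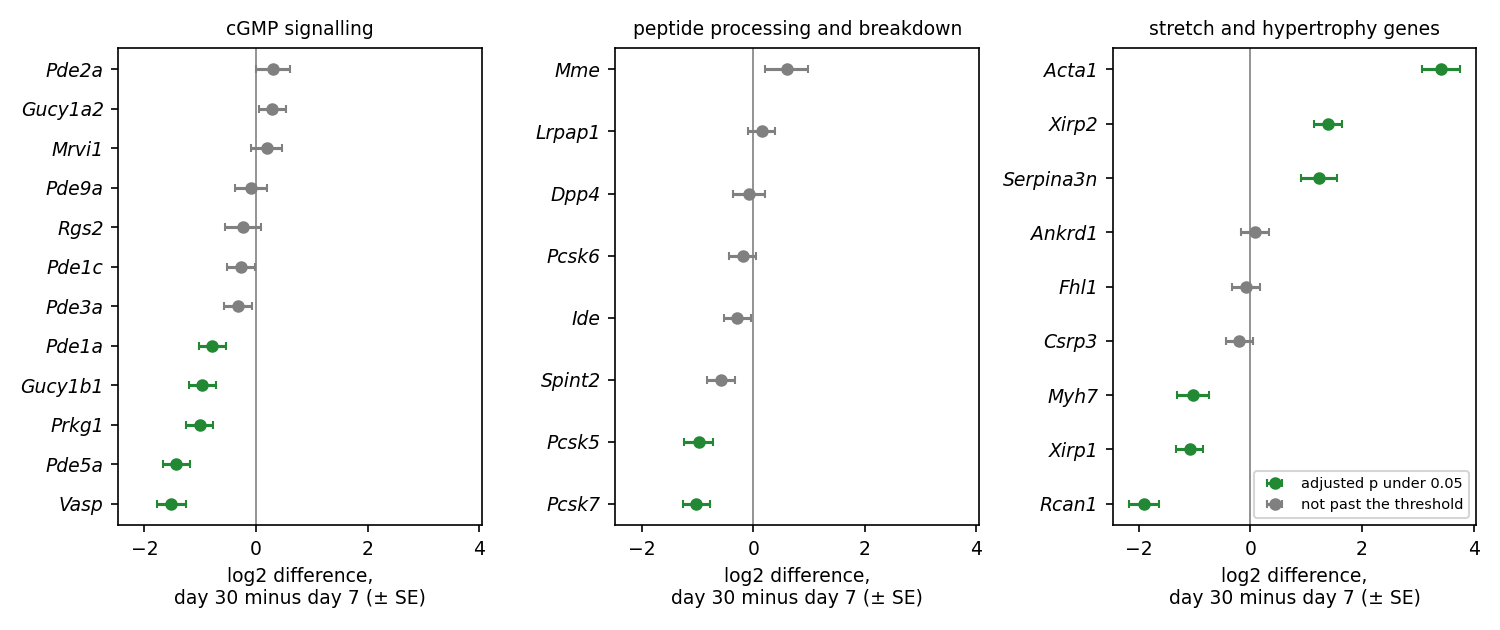
Log2 difference between day 30 and day 7 in the limma model (horizontal axis, bars of 1 SE) for the tested genes of the cyclic GMP, peptide processing and stretch lists; green points passed an adjusted p of 0.05 and grey points did not. In the cyclic GMP list 5 of 12 fell and 0 rose, and in the stretch list 3 rose and 3 fell.

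A list of peptide processing and breakdown was also read, which includes genes that do not themselves cut the peptides, such as Spint2 and Lrpap1. Its median between the days was -0.23, against -0.02 over all tested genes. Of its 8 tested genes, 2 fell and 0 rose, against 12.1% and 14.2% of all tested genes. Both are proprotein convertases of the Furin family: Pcsk7 fell by 1.02 (SE 0.24, adjusted p of 0.017 by limma) and Pcsk5 fell by 0.98 (SE 0.26, adjusted p of 0.026 by limma). With each array left out, Pcsk7 differed by -1.12 to -0.92 and Pcsk5 by -1.25 to -0.70, though neither kept the call in all of these fits. Mme, which encodes neprilysin, the peptidase that degrades natriuretic peptides, read 7.53 (PBS) and 6.31 (Tbx6) at day 7, and 7.26 and 7.78 at day 30. The Tbx6 array of day 7 was the low one, and the difference between days in the model was 0.60 (SE 0.38, adjusted p of 0.28 by limma). Spint2, a protease inhibitor, was above background on both arrays of day 7 alone and did not pass (-0.58, adjusted p of 0.12 by limma).

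The genes nearest to Nppb over the 4 arrays, after each gene was centred on its mean, were Mtmr2, Cep57 and Iffo2, with root mean square differences of 0.13, 0.20 and 0.20 on the log2 scale. All 3 were lowest on the Tbx6 array of day 30, where Mtmr2 read 8.57, against 10.07 to 10.39 on the others. Those nearest to Corin were Chordc1, Gid4 and Ndufb5, at 0.018, 0.022 and 0.030. Ndufb5, a subunit of respiratory complex I, read 13.53 and 13.92 at day 7 and 15.02 on both arrays of day 30. With 4 arrays and 9753 genes, close profiles of this kind are found for many genes, and they carry no test.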

How the data were processed

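Heart RNA of 4 groups, 1 array each, was measured on 1-colour mouse Clariom S arrays. Per the labels' design text, the authors used Expression Console 1.4 from Affymetrix to make the deposited log2 values by SST-RMA. The log base is not stated and was taken as 2 from the range of the values, which end at 19.93. The number of arrays, not read depth, limits precision here. Of 28846 probe sets, 19572 carried 1 gene symbol in the platform annotation, 0 several and 9274 none, and the highest was kept per gene, which left 19505 genes. Irag1 was read under its older symbol Mrvi1.

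Differences between single arrays were taken as deposited, with a size rule of 1.5-fold. The additive limma model (limma 3.58.1, R 4.3.3, lmFit and eBayes, two-sided) was fitted to 9753 genes with a mean of at least 5.30, with Benjamini-Hochberg adjustment over all of them, and tested on simulated data. Nothing says which samples came from separate animals. In the main model the 1 residual degree of freedom holds how far the day difference departed between the injections, and the variance rests largely on other genes. The p-values therefore do not measure a spread between animals or replicate samples. The members and gene lists were chosen with earlier results of these data known. Up to 4 genes of each list with the largest difference between days were named. Promoters came from RefSeq tables (GRCm38.p6), which matched all 8 members. Alternatives covered scaling, background, filter, probe sets, variance prior, model and each array left out.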

Additional observations from a re-analysis of the deposited data

Results flagged for a closer look

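The difference between Tbx6 and PBS had opposite signs on the 2 days, as computed, for Npr3, Corin, Npr2 and Nppa. With 1 array a group none of these was tested. For Npr3 the difference of 0.17 at day 7 became -0.74 at day 30, a shift of -0.90 on the log2 scale. Corin shifted by -0.39 (0.34 and -0.05) and Npr2 by -0.18 (0.06 and -0.13). The sign for Corin depended on scaling: with quantile normalisation its differences were 0.39 and 0.064, both positive. Nppa shifted by 0.26 (-0.25 and 0.01), but its readings of day 30 lay at or next to the highest value of the table, so no sign can be read there. Of these only the day 30 difference of Npr3 reached 1.5-fold.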

How the results depend on the processing

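Corin passed the test between days under all 12 alternatives, with differences of 1.09 to 1.44. The count of members past the test, 2 in the main model, was 1 with day alone in the model and 1 with no filter on low values, Corin in both, and 3 with limma-trend, which added Nppa. Nppb had an adjusted p by limma of 0.16 with day alone and 0.064 with no filter, and the cause was not tested. The count was 1 to 2 with each array left out, in fits with day alone in which the single array of a day is assumed to vary like the others. Leaving out arrays moved the count of fallen cyclic GMP genes between 2 and 5, of fallen processing genes between 0 and 2, of risen processing genes between 0 and 1 (Mme) and of fallen stretch genes between 1 and 3. The direction between days turned for Npr1 with a background floor (0.13), for Npr3 without the PBS array of day 30 (from -0.081 to 0.66 over the arrays left out) and for Furin without the Tbx6 array of day 7 (-0.24 to 0.29). The counts at 1.5-fold between injections, 0 and 2, did not change under the 4 alternatives of scaling, background and probe sets. Over all genes the calls between days, 2562, were 1402 and 1248 without the PBS and the Tbx6 array of day 30, and those between injections, 0, were 2 with the background floor, neither a member. The alternatives for the lists and the injection term were chosen after seeing the data. No paired analysis was possible because the labels give no replicate numbers and each group holds 1 array. Abundant transcripts such as Nppa sat at the top of the scale, and Nppc and Npr1 at background, so these arrays limit what can be read for them.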
